A study of Homo sapiens with 7 samples.

Results

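Short protein-coding genes, here those under 3 kb from start to end in the RefSeq gene table of GRCh38.p14, were examined for peaks of pThr4, the RNA polymerase II form that carries a phosphate on threonine 4 of the C-terminal repeat. Genes on chromosomes 1 to 22 and X were taken, and 84 short genes were left out because their symbols mark replication-dependent histones or cytosolic ribosomal proteins (H1-, H2AC, H2BC, H3C, H4C, RPL or RPS). This left 1821 genes of 19974 protein-coding genes. Their median length was 1608 bp, from 51 to 2999 bp. The members were chosen by length and symbol alone, with no measured value. They were compared with 9163 protein-coding genes of 3 to 30 kb, whose median length was 12247 bp. Unless stated otherwise, the region of a gene was the gene with 1 kb on either side, and a gene had a peak where a deposited peak overlapped that region by at least 1 bp.

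The chromatin came from HEK293 cells, an established line of human embryonic kidney origin, fixed with formaldehyde and sonicated. Before immunoprecipitation with the pThr4 antibody 6D7, the material was treated either with active SCP1 (WT), a phosphatase of the polymerase C-terminal domain, or with the catalytically inactive D96A mutant (SCP1-Dead). Each group held 3 biological replicates, both groups shared the cell line, the antibody and the fixation, and the control precipitated with IgG was not analysed here. The treatment was made on lysate and not in living cells, and a peak list gives no expression values against which the cell type could be checked. On chromosomes 1 to 22 and X the lists held between 6680 and 36892 peaks with active SCP1 and between 1163 and 2699 with inactive SCP1. Read counts are not part of the lists, so sequencing depth is unknown and its part in the length of a list was not tested. The peak names carried the number 10 in replicates 1 and 2 of both groups and the number 5 in replicate 3 of both groups, and the meaning of that number is not given in the sources used here.

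The C-terminal domain of the largest polymerase subunit is a long array of heptad repeats whose serines, threonine and tyrosine are phosphorylated in turn as transcription proceeds. Serine 5 phosphate is known for the start of genes, and threonine 4 phosphate for elongation and for the region past the polyadenylation site, where the polymerase ends transcription. SCP1 removes serine 5 phosphate, and a phosphate on a neighbouring residue can hide an epitope from an antibody. On a short gene the start, the body and the region past the end lie close together, so the ends of one gene, and often those of a neighbour, fall within the same broad peak. Many short genes have a single exon or few introns and belong to families such as olfactory receptors, keratin-associated proteins or small mitochondrial subunits.

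The bases directly upstream of the start are shown for 4 short genes on which the results below turn, each 250 bases long, 5′ to 3′ on the strand of the gene, from RefSeq on GRCh38.p14. Capitals mark the motifs searched on both strands, which were the letters TATAAA for the core promoter element that binds the TATA-binding protein, the CCAAT box as it is named, and GGGCGG for the element known as the GC box. None of these windows lies within another protein-coding gene. CD68, a glycoprotein of macrophage lysosomes, is at chr17:7579388-7579637 on the plus strand. SMIM32, a small membrane protein gene, is at chr5:136193163-136193412 on the minus strand. PYCARD, the inflammasome adaptor ASC, is at chr16:31202761-31203010 on the minus strand. APRT, the adenine salvage enzyme, is at chr16:88811929-88812178 on the minus strand.
CD68: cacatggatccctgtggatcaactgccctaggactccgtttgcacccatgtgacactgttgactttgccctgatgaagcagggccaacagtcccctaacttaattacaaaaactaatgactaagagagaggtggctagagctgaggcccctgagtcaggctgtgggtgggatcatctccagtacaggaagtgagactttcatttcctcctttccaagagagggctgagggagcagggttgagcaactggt
SMIM32: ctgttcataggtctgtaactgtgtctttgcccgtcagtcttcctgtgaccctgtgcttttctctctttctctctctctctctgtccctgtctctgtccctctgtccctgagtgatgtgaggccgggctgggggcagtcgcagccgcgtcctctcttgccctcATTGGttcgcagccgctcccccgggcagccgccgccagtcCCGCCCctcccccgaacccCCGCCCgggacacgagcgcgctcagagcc
PYCARD: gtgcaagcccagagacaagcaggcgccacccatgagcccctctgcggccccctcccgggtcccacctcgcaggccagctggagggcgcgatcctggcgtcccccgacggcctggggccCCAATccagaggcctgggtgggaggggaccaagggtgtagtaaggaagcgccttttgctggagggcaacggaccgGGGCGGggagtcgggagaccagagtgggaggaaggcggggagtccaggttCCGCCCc
APRT: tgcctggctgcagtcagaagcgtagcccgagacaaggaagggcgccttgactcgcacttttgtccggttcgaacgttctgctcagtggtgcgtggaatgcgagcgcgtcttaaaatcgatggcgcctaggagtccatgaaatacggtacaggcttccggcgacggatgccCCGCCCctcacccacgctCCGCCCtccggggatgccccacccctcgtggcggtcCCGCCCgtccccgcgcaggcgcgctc
The window of CD68 lay wholly under a peak in all 6 libraries and held none of the motifs searched. The window of SMIM32 lay wholly under a peak in all 3 libraries with active SCP1, whereas with inactive SCP1 peaks covered 2.80%, 0% and 26% of it in replicates 1, 2 and 3. PYCARD had a peak in every active library, but the peak reached over the whole window only in replicate 3 and over 10.4% of it in replicate 2. The window of APRT, which had some of the strongest peaks among short genes, was under a peak only in active replicate 3. In the other libraries the strongest peak lay on its body and past its end, and active replicate 1 had a second, weaker peak upstream, from −1491 to −329 bp.

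Short genes had a peak more often with active than with inactive SCP1. With active SCP1, 261, 199 and 516 of the 1821 genes had a peak in replicates 1, 2 and 3, or 14.3%, 10.9% and 28.3%. With inactive SCP1 the numbers were 133, 64 and 130, or 7.30%, 3.51% and 7.14%. The lowest active library thus stood above the highest inactive one. The means were 17.9% ± 9.23 (SD, n = 3) and 5.99% ± 2.14 (SD, n = 3), and the difference of the mean log2 shares was 1.53, or 2.89-fold. A two-sided exact permutation test that enumerated 20 assignments gave p = 0.1, the smallest it allows with 3 against 3, and 0.18 after Benjamini-Hochberg adjustment over the 9 tests made here, so this design could not reach 0.05. Over all protein-coding genes the shares were 34%, 23.2% and 58.3% with active SCP1 against 11.6%, 5.75% and 12.4% with inactive SCP1. The share of short genes was below that background in each of the 6 libraries. When each list was cut to its 1163 strongest peaks, the length of the shortest list, the log2 ratio was 0.29 (exact permutation p = 0.2), and with a common −log10 p of at least 6 it was 1.00. In replicates 1 and 2 alone, whose peak names carry the same number, it was 1.31, and without active replicate 3 it was 1.14. It was 2.39 where at least 50% of the gene had to be covered and 3.34 among genes with no other protein-coding gene within 5 kb, which rests on 1 to 5 genes in each inactive list.

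The same genes were less often marked than longer ones, in every library. Genes of 3 to 30 kb had a peak in 35.0%, 25.2% and 55.6% of cases with active SCP1 and in 14.5%, 7.64% and 15.9% with inactive SCP1. The log2 ratio of short over longer genes was −1.12 ± 0.12 (SD, n = 6), or 0.46 times, and was below 0 in all 6 libraries. The two-sided exact sign-flip permutation test gave p = 0.031, the smallest it allows over 6 libraries, and 0.141 after adjustment over 9 tests. A longer region has more places to overlap a peak, and the share near the ends alone, within 1 kb of either gene end, still gave −0.88. Among genes with no other protein-coding gene within 5 kb the log2 ratio over the whole regions was −3.35, on 1 to 5 short genes with a peak in each inactive list. Of these 843 short genes, 576 lay outside 6 tissue-restricted families described below, against 3490 of 3636 longer ones. The part of this difference in the ratio was not tested. Where a gene counted only if peaks covered at least 50% of it, the order turned, with a log2 ratio of 1.98. That rule favours short genes by length, since median peak widths were 785 to 833 bp and median gene lengths 1608 and 12247 bp. It therefore cannot compare the marking of short and longer genes apart from their length. The difference between the groups in the ratio of the shares was −0.07 (exact permutation p = 0.6).

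**Figure D1:**
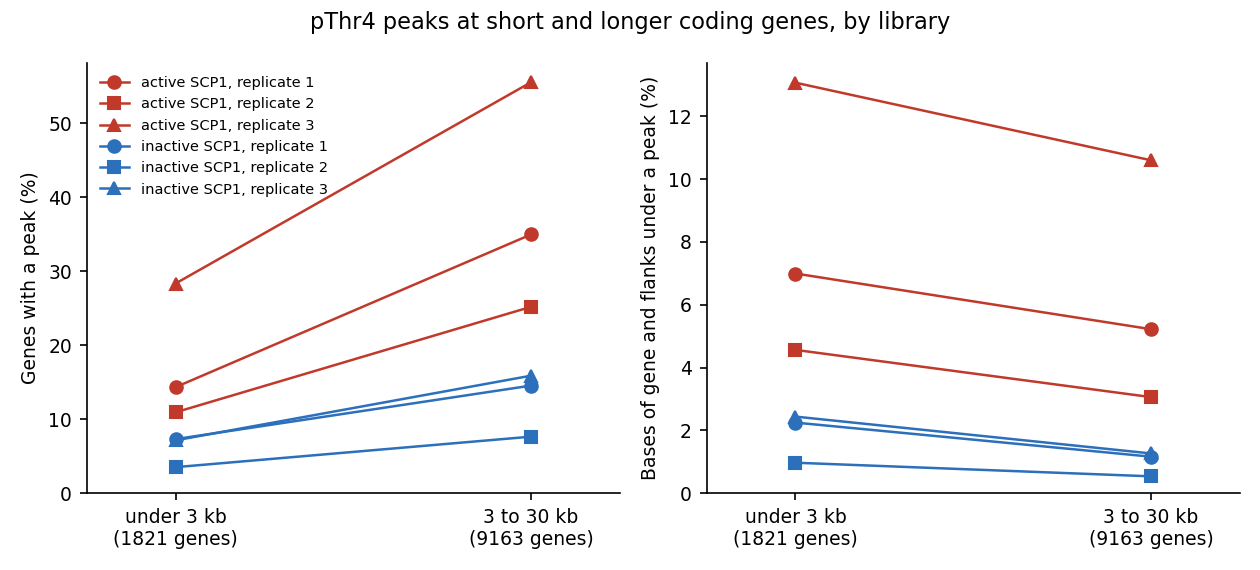
Each line joins the values of 1 library for 1821 coding genes under 3 kb and 9163 of 3 to 30 kb, in red for active and blue for inactive SCP1. The left panel gives the percent of genes with a peak in the gene or within 1 kb, which was lower for short genes in all 6 libraries, and the right panel the percent of bases of these regions under a peak, which was higher for short genes in all 6.

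Counted by bases, the order was the opposite. Peaks covered 6.99%, 4.56% and 13.1% of the bases of short gene regions with active SCP1 against 2.25%, 0.97% and 2.44% with inactive SCP1. For genes of 3 to 30 kb the values were 5.22%, 3.06% and 10.6%, and 1.16%, 0.54% and 1.27%. The log2 ratio of short over longer genes was 0.68 ± 0.28 (SD, n = 6), or 1.60 times, and was above 0 in all 6 libraries (exact sign-flip permutation p = 0.031, adjusted 0.141). This ratio was 0.43 ± 0.14 with active SCP1 and 0.92 ± 0.05 with inactive SCP1 (SD, n = 3 each), and the groups did not overlap (difference −0.48, exact permutation p = 0.1, adjusted 0.18). At equal peak number this difference was −0.11 (exact permutation p = 0.4), and with common cutoffs of 6 for −log10 p and 2 for −log10 q it was −0.28 and −0.31. The comparison depended on which longer genes and which bases were taken. Against genes of 3 to 10 kb the log2 ratio was 0.02 (exact permutation p = 0.656), counting only the bases within 1 kb of either gene end it was −0.34, and among genes with no other protein-coding gene within 5 kb it was −1.71. The last value rests on 1 to 5 short genes with a peak in each inactive list.

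Within the short genes both measures were higher in the longest bin than in the shortest in all 6 libraries. Of the 460 genes under 1 kb, 5.43%, 3.48% and 12.2% had a peak with active SCP1 against 2.39%, 1.30% and 2.17% with inactive SCP1. Of the 307 genes of 2.5 to 3 kb, 23.5%, 20.2% and 43.0% had one with active SCP1 against 13.0%, 6.84% and 12.1% with inactive SCP1. The next 340 genes, of 3 to 3.5 kb, had shares close to these, at 24.1%, 16.2% and 40.9%, and 10.9%, 5.59% and 12.4%, so the limit of 3 kb marked no step in the share. The covered part of the bases was at 10.2%, 6.76% and 17.8%, and 3.41%, 1.48% and 3.5%, in the bin of 2.5 to 3 kb. It was lower in each library in the bin just past the limit, where it stood at 7.50%, 4.93% and 15.4% with active SCP1 and at 2.00%, 0.94% and 2.74% with inactive SCP1. Leaving out 373 genes of 6 tissue-restricted families described below, the share of genes under 1 kb with a peak was 11.1%, 7.08% and 23.5% with active SCP1 against 4.87%, 2.66% and 4.42% with inactive SCP1, still below the longer bins.

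**Figure D2:**
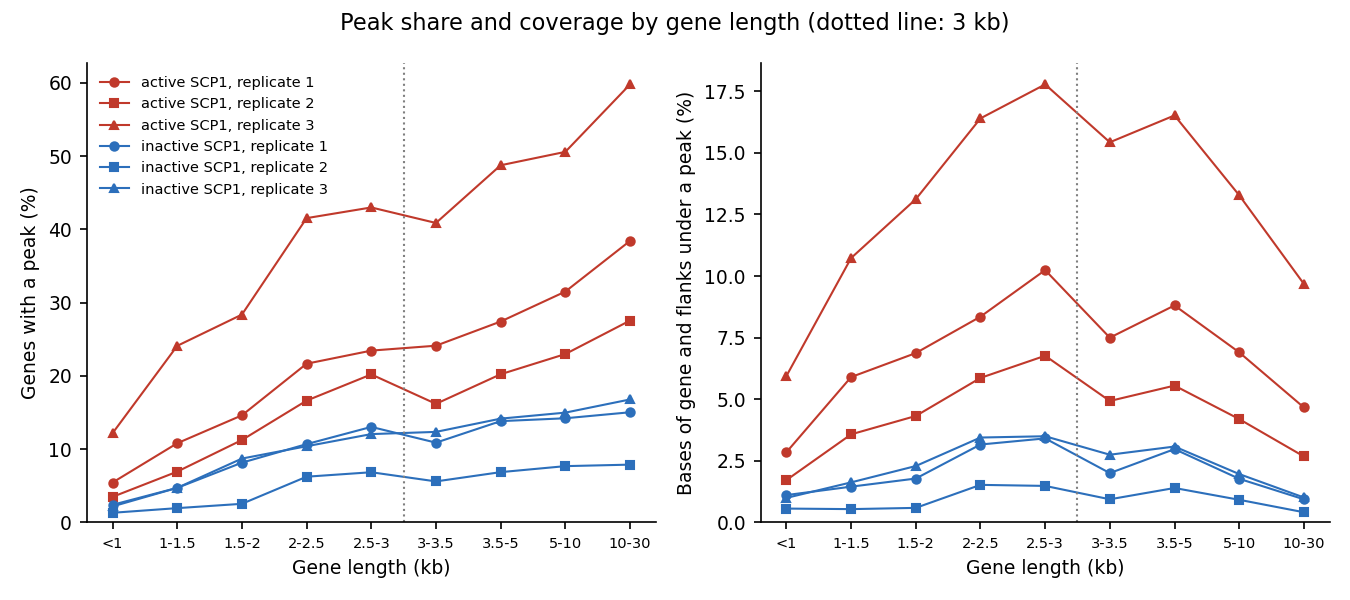
The left panel plots the percent of coding genes with a peak in the gene or within 1 kb, the right panel the percent of bases of these regions under a peak, in 9 bins of gene length, with 1 line per library (red, active SCP1; blue, inactive SCP1). The share rose along the short bins without a step at 3 kb, whereas the covered percentage fell again in genes of 5 kb and more.

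The strength of the peaks differed little between short and longer genes. The fold enrichment in the deposited lists is a ratio over background within 1 library and has no common scale across libraries. The median over short genes with a peak, taking the strongest peak of each, was 3.74, 3.87 and 3.35 with active SCP1 against 3.97, 3.89 and 4.09 with inactive SCP1. For genes of 3 to 30 kb it was 3.68, 3.78 and 3.47, and 4.02, 3.96 and 4.0. The log2 ratio of the medians was −0.0005 ± 0.04 (SD, n = 6), above 0 in 3 of 6 libraries (exact sign-flip permutation p = 0.969). For the deposited −log10 p the log2 ratio was 0.03 ± 0.06 (SD, n = 6), above 0 in 5 of 6 libraries (exact permutation p = 0.344). It reached 0.10 where only the gene without its flanks was counted, with p = 0.031 in the same exact test.

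Along the gene, short and longer genes had different outlines. A strand was found for 1717 short genes and 8968 of 3 to 30 kb. In short genes the covered percentage was highest inside the gene in all 6 libraries, in 5 of them toward the start. In the first 20th of the gene it was 9.92%, 6.47% and 17.9% with active SCP1 against 3.86%, 1.17% and 3.84% with inactive SCP1, against 7.56%, 5.01% and 12.7%, and 2.54%, 1.30% and 2.24%, in the last. Inactive replicate 2, the shortest list, was the exception, with its highest value at the gene end. Of these genes, 805 had no other protein-coding gene within 5 kb. Their highest point lay inside the gene in active replicates 1 and 3 and inactive replicate 2. In the other libraries it lay 2150 to 2850 bp past the end, at only 0.37% to 0.62%. In genes of 3 to 30 kb the highest point lay 650 to 850 bp past the end in all 6 libraries, at 16.2%, 11.4% and 24.5%, and 5.93%, 3.10% and 6.4%, and the gene body after the start was the lowest part.

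The 1 kb before the start and the 1 kb past the end gave the same contrast as single values. In short genes 5.83%, 3.65% and 11.2% of the bases before the start were covered with active SCP1 against 1.61%, 0.72% and 2.11% with inactive SCP1. Past the end the values were 6.54%, 4.29% and 11.3%, and 2.18%, 0.92% and 2.01%. The log2 ratio of before over past was −0.19 ± 0.19 (SD, n = 6; exact sign-flip permutation p = 0.0938, adjusted 0.18), below 0 in 5 of 6 libraries. In genes of 3 to 30 kb it was −1.99 ± 0.49. The difference between short and longer genes, 1.80 ± 0.41 on the log2 scale, was above 0 in all 6 libraries (exact sign-flip permutation p = 0.031, a comparison added to the 9). The difference in this ratio between active and inactive SCP1 was 0.10 (exact permutation p = 0.6).

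**Figure D3:**
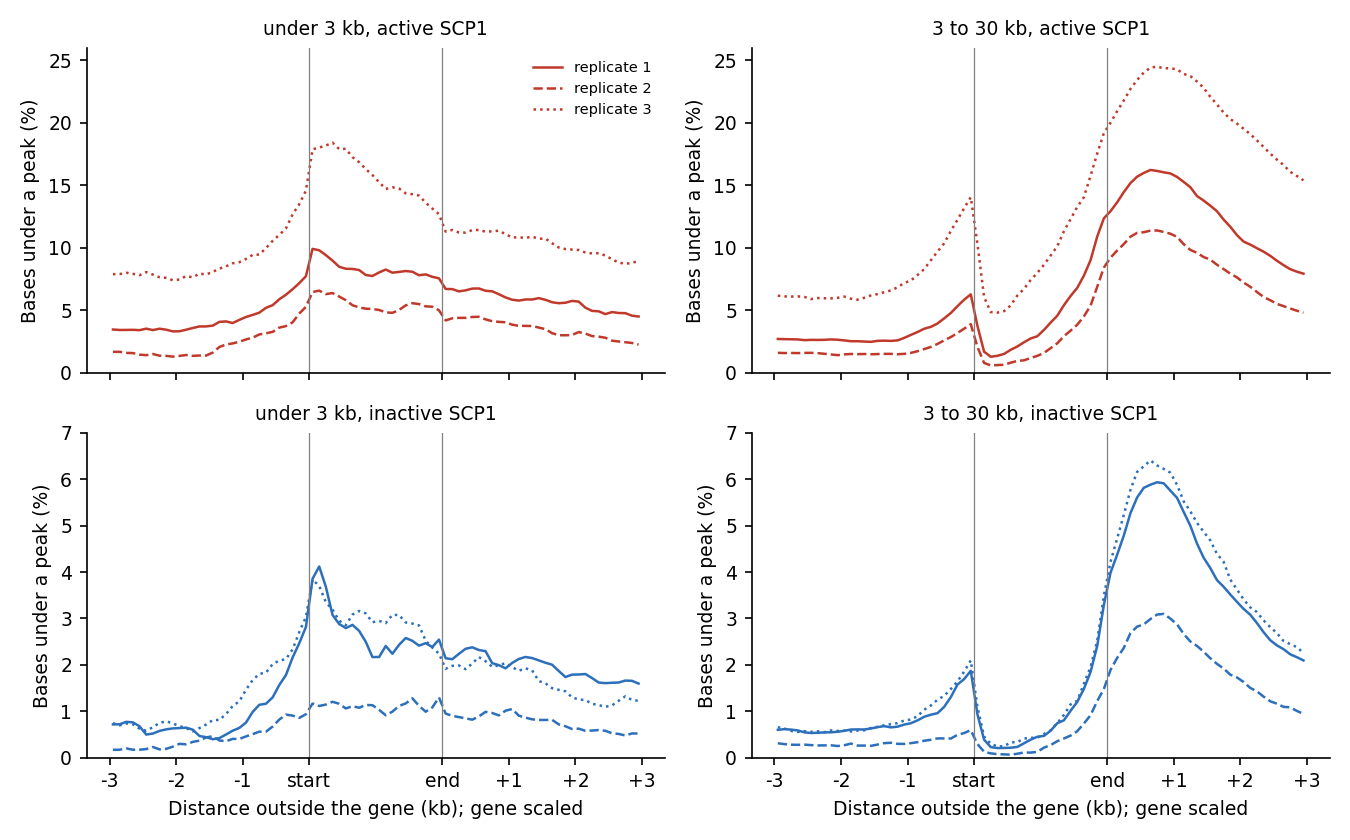
The percent of bases under a peak is drawn from 3 kb before the start to 3 kb past the end, with the gene scaled to a common width, for coding genes under 3 kb (left) and of 3 to 30 kb (right), with active SCP1 above and inactive SCP1 below on separate scales and 1 line per replicate. Short genes had their highest coverage inside the gene, and genes of 3 to 30 kb had it 650 to 850 bp past the end.

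Where a short gene had a peak, the peak covered more of the gene with active than with inactive SCP1. A single peak spanned the whole gene in 25.7%, 17.6% and 22.7% of these genes with active SCP1 and in 6.77%, 3.13% and 10.0% with inactive SCP1. The peaks at short genes had median widths of 1789, 1310 and 1428 bp with active SCP1 against 1059, 956 and 1151 bp with inactive SCP1. Over the whole lists the medians were 785 to 833 bp. A wider peak overlaps any region more readily, so this contrast with the whole lists cannot show broader peaks at short genes. Among genes with a peak, the mean covered part of the gene itself was 49.8%, 43.0% and 48.6% with active SCP1 against 32.0%, 27.3% and 35.1% with inactive SCP1. Groups did not overlap in these 3 measures. They are given for short genes and the lists at their deposited lengths only. Whether longer genes differ alike, or lists of equal peak number, was not tested. Of genes with a peak and a strand, 13.9% to 19.3% had it only in the flanks with active SCP1 and 23.7% to 27.4% with inactive SCP1. The peak also reached into another protein-coding gene in 55.8% to 66.7% of the genes with active SCP1 and in 48.4% to 54.1% with inactive SCP1, so a peak on a short gene frequently could not be assigned to that gene alone.

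Peaks on short genes were found mainly beside other genes. Among 978 short genes that overlapped another protein-coding gene or lay within 5 kb of one, 244, 190 and 414 had a peak with active SCP1 against 128, 63 and 127 with inactive SCP1. Among the other 843, 17, 9 and 102 had one with active SCP1 against 5, 1 and 3 with inactive SCP1. The share near a gene was therefore 12.4, 18.2 and 3.5 times the share farther away with active SCP1, and 22.1, 54.3 and 36.5 times with inactive SCP1, the latter resting on 1 to 5 genes. In genes of 3 to 30 kb the same ratio ran from 1.78 to 3.75. Outside the 6 tissue-restricted families, 576 short genes lay farther than 5 kb, of which 17, 9 and 101 had a peak with active SCP1 against 5, 1 and 3 with inactive SCP1. Active replicate 3, the longest list, thus held most of the marked short genes that stood alone.

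**Figure D4:**
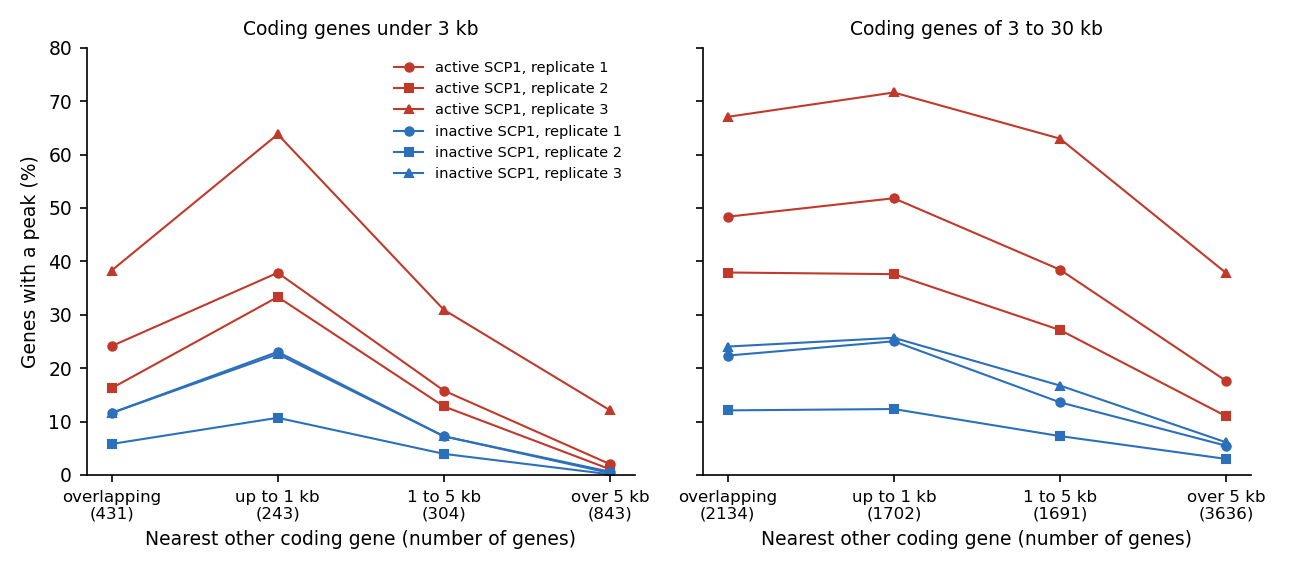
The percent of coding genes with a peak in the gene or within 1 kb is plotted by the distance to the nearest other coding gene, for genes under 3 kb (left) and of 3 to 30 kb (right), with 1 line per library (red, active SCP1; blue, inactive SCP1) and the number of genes under each position. Of the 243 short genes with a neighbour up to 1 kb away, 37.9%, 33.3% and 63.8% had a peak with active SCP1, against 2.02%, 1.07% and 12.1% of the 843 with none within 5 kb.

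Which end of the neighbour lay in the region separated the short genes further. In 189 short genes the region held the end of another protein-coding gene but no start of one, and 58.7%, 47.6% and 76.7% of these had a peak with active SCP1 against 36.5%, 18.0% and 35.4% with inactive SCP1. In 184 the region held a start but no end, and 17.9%, 14.7% and 42.9%, and 8.70%, 4.35% and 9.24%, had one. In 1391 it held neither, and 6.69%, 4.75% and 18.5%, and 2.52%, 1.15% and 2.44%, had one. The order of these 3 classes was the same in all 6 libraries. In genes of 3 to 30 kb the shares were 63.2%, 49.9% and 79.5%, and 32.7%, 16.6% and 33.6%, with an end of another gene only, close to those of short genes, but 23.7%, 15.6% and 45.1%, and 7.79%, 4.24% and 9.13%, with neither. This split was chosen after the distances had been seen and no test was run on it.

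Over the 6 libraries together, 1293 short genes, or 71.0%, had no peak in any list, against 42.45% of those of 3 to 30 kb. A peak in all 6 lists was found for 60 genes, or 3.29%, against 4.86% of all protein-coding genes and 6.60% of those of 3 to 30 kb. A peak in every active list and no inactive one was found for 41, or 2.25%, against 7.38% of all and 6.57% of the longer ones. Both shares lay below their background. Without inactive replicate 2 the first count was 109, and without active replicate 2 the second was 106. At equal peak number they were 37 and 2. Of 153 short genes with a peak in any inactive list, 140, or 91.5%, had one in all active lists. Among genes of 3 to 30 kb it was 1513 of 1759, or 86.0%, so this nesting was not particular to short genes. Only MRFAP1, a partner of the MRG15 chromatin factor, named here after its values were seen, had a peak in inactive lists (replicates 1 and 3, fold enrichment 3.8 and 3.72) and in no active one, where 0.15% of all protein-coding genes did. Another 248, or 13.6%, had a peak in active replicate 3 alone. A peak in 1 active and no inactive list was found for 14.1% of short genes, against 21.55% of those of 3 to 30 kb. Of the 60 genes with a peak in all lists, 37, or 61.7%, held the end of another protein-coding gene in their region, against 34.1% of the 41 with a peak in active lists only, 5.03% of those with no peak and 13.5% of all short genes.

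The 10 genes with a peak in all 6 lists and the highest minimum fold enrichment were AMH, APRT, LENG9, CD68, MRPS34, NME3, NDUFB10, ROMO1, SLC33A2 and JMJD8, and 9 of them held the end of a neighbour. AMH encodes anti-Müllerian hormone, a gonadal hormone, and lies at chr19:2249323-2252073 with the ends of SF3A2 and JSRP1 in its region. Its fold enrichment was 6.99, 7.10 and 7.73 with active SCP1 against 6.84, 5.93 and 7.17 with inactive SCP1. Peaks covered the whole gene in each active library and 97.2%, 55.0% and 70.1% of it in the inactive ones. APRT, at chr16:88809339-88811928, converges on CDT1, a replication licensing factor whose end lies 81 bp away. Its fold enrichment was 8.80, 7.34 and 6.96 with active SCP1 against 6.23, 5.61 and 5.73 with inactive SCP1. In 5 of 6 libraries its strongest peak began inside the gene, 668 to 1316 bp after the start, and ran out past the end to between 5128 and 6927 bp from the start. In active replicate 3 a single peak of greater width covered the gene and both sides.

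CD68, at chr17:7579638-7582111, begins 632 bp past the end of EIF4A1, a translation initiation helicase transcribed in the same direction. Its peaks had fold enrichments of 6.53, 7.40 and 6.15 with active SCP1 against 6.19, 5.16 and 6.12 with inactive SCP1. In the inactive libraries the peaks ran from positions −833, −877 and −871 bp to 428, 347 and 399 bp, counted from the start in the direction of transcription, so only 14% to 17.3% of the gene itself was covered. With active SCP1 they began farther upstream, between −3946 and −1243 bp, and ended at 501, 369 and 1019 bp, over 20.2%, 14.9% and 41.2% of the gene. In each library the peak thus spanned the window printed above and the first part of CD68, and not its end. NDUFB10, a subunit of respiratory complex I at chr16:1959538-1961975, had values of 6.61, 5.42 and 6.53 with active SCP1 against 7.47, 5.04 and 6.03 with inactive SCP1. The end of RPS2 lies within 83 bp of it, and peaks covered 45.6% to 71.4% of the gene.

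MRPS34, a mitochondrial ribosome subunit, and NME3, a nucleoside diphosphate kinase, adjoin each other on chromosome 16 and shared their strongest peaks in all 6 libraries, so they are 1 observation. The value was 6.61, 6.72 and 8.24 with active SCP1 against 5.77, 5.14 and 5.48 with inactive SCP1. With active SCP1 the shared peak covered both genes whole, whereas with inactive SCP1 it covered 9.36%, 0% and 0% of MRPS34 and 100%, 54.2% and 100% of NME3. The peak thus sat on the side of NME3, whose region holds the end of MAPK8IP3. LENG9 overlaps LENG8, and JMJD8, a jumonji-domain protein of the endoplasmic reticulum, overlaps the ubiquitin ligase STUB1, and in both cases a peak cannot be assigned to a single gene. ROMO1, a small inner-membrane protein of mitochondria, had values of 6.75, 5.83 and 7.46, and 6.47, 4.79 and 5.40. SLC33A2 had 7.11, 6.12 and 8.03, and 5.48, 4.79 and 5.37, and no strand was found for it.

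**Figure D5:**
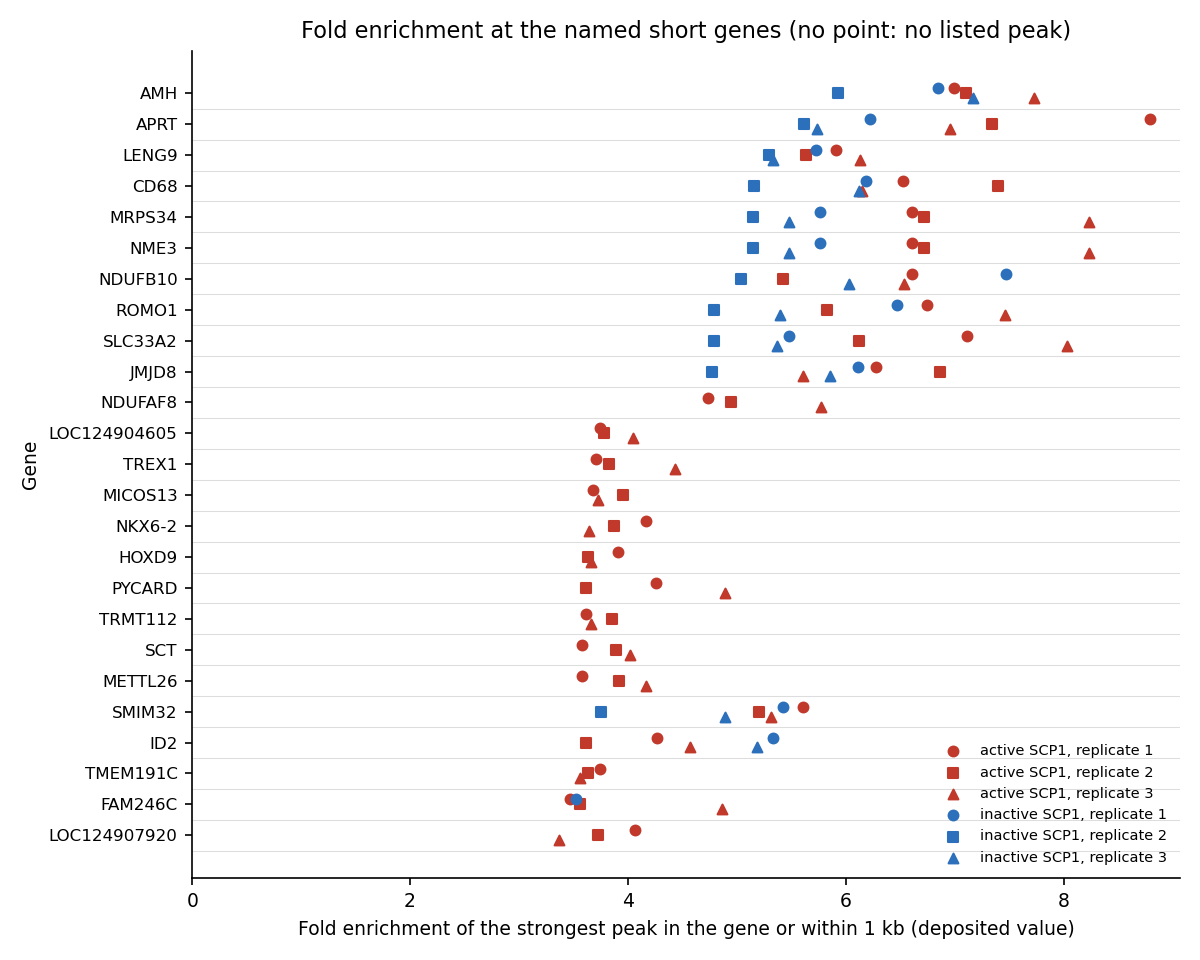
The deposited fold enrichment of the strongest peak in the gene or within 1 kb is plotted for the named short genes, with red for active and blue for inactive SCP1, 1 marker shape per replicate and no point where no peak was listed. The first 10 genes carried values in all 6 libraries, from 4.78 to 8.80, and the next 10 only in the active ones, from 3.58 to 5.77.

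The 10 genes with peaks in the active lists only, ranked the same way, were NDUFAF8, LOC124904605, TREX1, MICOS13, NKX6-2, HOXD9, PYCARD, TRMT112, SCT and METTL26, and 4 of them held the end of a neighbour. Within each active list their values were below those of the first 10, except NDUFAF8 in replicate 3, which was above JMJD8. Both lists were ranked by this value and split by the presence of inactive peaks, so their order is no independent result. NDUFAF8, an assembly factor of complex I, had 4.73, 4.95 and 5.77, but its peaks began 579 to 583 bp past the end of the gene and covered none of it. TREX1, the DNA exonuclease that clears cytosolic DNA and whose gene overlaps ATRIP, had 3.71, 3.83 and 4.43, with 88.5%, 72.3% and 100% of the gene covered. MICOS13, a protein of mitochondrial cristae junctions, had 3.68, 3.96 and 3.73, with 34.6%, 0% and 100% of the gene covered. In active replicates 1 and 2 its strongest peak lay past the gene end, and the start of HSD11B1L lies in its region. Peaks covered none of LOC124904605 in any active library, and 0%, 0% and 19.6% of METTL26. TRMT112, the activator of several methyltransferases, had 3.61, 3.85 and 3.66. SCT, the hormone secretin, had 3.58, 3.89 and 4.02. Among developmental factors, the homeobox gene NKX6-2 had 4.17, 3.88 and 3.65 with 60.8%, 51.9% and 59.3% of the gene covered. NKX6-2, TREX1 and TRMT112 overlap INPP5A, ATRIP and ESRRA, whose ends lie in their regions, so these peaks cannot be assigned to a single gene. HOXD9 had 3.90, 3.63 and 3.67, and in each active library it had 2 separate peaks, one across the start and one across the end.

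Short genes standing alone were rarely marked in all active lists. Of the 843 with no other protein-coding gene within 5 kb, 7, or 0.83%, had a peak in all 3. This compares with 9.16% of 3636 genes of 3 to 30 kb equally far from a neighbour, and 20.6% of all protein-coding genes. Outside the 6 tissue-restricted families it was 7 of 576 short genes, or 1.2%, and 9.54% of 3490 longer ones. Of these 7, the 6 with the highest minimum fold enrichment were SMIM32, PYCARD, ID2, TMEM191C, FAM246C and LOC124907920. SMIM32 was the one gene of the 843 with a peak in all 6 lists, at 5.61, 5.20 and 5.32 with active SCP1 against 5.43, 3.75 and 4.89 with inactive SCP1. Its peaks covered the whole gene in every active library and 84.3%, 48.1% and 100% of it in the inactive ones. With active SCP1 they began between −2060 and −305 bp from the start, beyond the window printed above, and ended 2732 to 4137 bp after it. With inactive SCP1 they began between −65 and 697 bp and ended 1429 to 2072 bp after the start. ID2, an inhibitor of basic helix-loop-helix factors whose nearest neighbour lies 36620 bp away, had values of 4.27, 3.61 and 4.57 with active SCP1 and 5.33 and 5.18 in inactive replicates 1 and 3. Its peak past the end was placed alike in these 5 libraries, beginning 351 to 478 bp beyond the gene. PYCARD had 4.26, 3.62 and 4.89 with active SCP1 and no peak with inactive SCP1.

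Grouped by family, short genes of tissue-restricted function were almost free of peaks. None of the 198 olfactory receptors, the 13 interferon alpha genes, the 19 defensins and the 26 late cornified envelope and SPRR genes had a peak in any library. Of 94 keratin-associated proteins, hair shaft components, 7 had one, and of 23 bitter taste receptors TAS2R41 had one, all in active replicate 3 alone. Of these 7, 6 were KRTAP10 genes, which overlap TSPEAR. None of the 21 chemokines and 6 S100 genes, which were not among the 6 families, had a peak, and 3 of 10 metallothioneins had one in active replicate 3 only. Without the 6 families the share of short genes with a peak was 18.0%, 13.7% and 35.1% with active SCP1 against 9.18%, 4.42% and 8.98% with inactive SCP1, and the log2 ratio to genes of 3 to 30 kb was −0.83.

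The lists of mitochondrial and proteasome genes mostly stood above the shares of all protein-coding genes given above, in small numbers of genes. The mitochondrial ribosome list was above them in every library and the respiratory chain list in all but active replicate 3. The proteasome list was above them in all but active replicates 1 and 3. These differences were not tested. Of 14 short genes of the respiratory chain list, 6, 4 and 8 had a peak with active SCP1 against 3, 1 and 3 with inactive SCP1, or 42.9%, 28.6% and 57.1%, and 21.4%, 7.14% and 21.4%, where all protein-coding genes had 34%, 23.2% and 58.3%, and 11.6%, 5.75% and 12.4%. Those with a peak in all active lists were COX7A1, NDUFA2, NDUFAF8 and NDUFB10. COX7A1, a cytochrome oxidase subunit of muscle, had low values of 2.64, 2.67 and 2.75. Of 10 genes of the mitochondrial ribosome, 4, 5 and 8 had a peak with active SCP1 against 2, 2 and 2 with inactive SCP1, or 40%, 50% and 80%, and 20% in each. MRPL53 of this group had 5.17, 4.34 and 5.31 with active SCP1 against 5.61, 4.51 and 4.39 with inactive SCP1. Of 6 proteasome genes 2, 3 and 3 had a peak with active SCP1 against 2, 1 and 1 with inactive SCP1. PSMB10, an immunoproteasome subunit, had a peak in all 6 lists, with 4.94, 4.71 and 4.13, and 4.37, 3.64 and 4.17. The Sm and LSm list had no member under 3 kb.

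Homeobox, SOX and FOX genes had peaks mainly with active SCP1. Of 43 members 14, 8 and 29 had a peak with active SCP1 against 2, 0 and 2 with inactive SCP1, or 32.6%, 18.6% and 67.4% against 4.65%, 0% and 4.65%. All protein-coding genes had 34%, 23.2% and 58.3%, and 11.6%, 5.75% and 12.4%, so the active shares lay around that background and the inactive shares below it. No member had a peak in all 6 lists. FOXD4, HOXB2, HOXB5, HOXB8, HOXD9, NKX6-2 and SOX15 had one in all active lists, and 4 of these had none in any inactive list. HOXB2 had 3.52, 3.72 and 3.51, and HOXB8 had 3.44, 3.40 and 3.79. HOXB5 had 3.44, 3.58 and 3.23, with 3.28 in inactive replicate 3. Members of the HOXB cluster are neighbours, so their peaks are not independent. The difference of the group ratio between these genes and other short genes was not tested.

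Of the 12 immediate early and stress genes, 4, 2 and 7 had a peak with active SCP1 against 2, 1 and 3 with inactive SCP1. The active shares, 33.3%, 16.7% and 58.3%, were at or below those of all protein-coding genes. The inactive shares, 16.7%, 8.33% and 25.0%, were above the 11.6%, 5.75% and 12.4% of all protein-coding genes, on few genes. ATF4, the translation-controlled stress factor, had one in all 6 lists, with 4.17, 5.45 and 4.81, and 5.79, 5.20 and 5.84. In each list a peak began near the gene end, at positions from −218 to 94 bp relative to it. Second, weaker peaks lay upstream of the start in active replicate 1 (−2710 to −41 bp) and inactive replicate 3 (−1730 to −649 bp). In active replicate 3 a second, weaker peak ran from −5497 to 32 bp, across the start. Together the peaks covered at most 10.9% of the gene. ATF4 belongs to a panel of 24 widely expressed or inducible genes, of which 15 were under 3 kb. Of these 15, ATF4, FTL, GPX4 and PFN1 had a peak in all active lists and 6 (FAU, HSPB1, ID3, JUND, MT2A and UBB) in none. PFN1, the actin-binding profilin, had 6.14, 5.29 and 5.48 with active SCP1 against 4.22, 4.54 and 5.38 with inactive SCP1. Its region holds the end of RNF167 and the start of ENO3. The PFN1 peaks reached 1007 to 3004 bp past the gene end and covered only 0.56% of the gene in inactive replicate 3. FTL, the ferritin light chain, had 3.51, 3.72 and 3.57, and 3.37, 3.20 and 3.36, and its peaks began inside the gene in each library, covered 42.6% to 99.1% of it and ran past its end in 4 of 6. GPX4, the peroxidase of lipid hydroperoxides, had 3.66, 4.76 and 4.12 with active SCP1 and 3.92 in inactive replicate 3. The end of SBNO2 lies in the region of GPX4. JUNB, an AP-1 subunit whose gene overlaps HOOK2, had 3.41 and 4.12 in active replicates 1 and 3 and 3.47 in inactive replicate 3. ID1, CEBPB, ACTG1 and HSPA1A had a peak in active replicate 3 only, from 2.80 to 3.21.

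By chromosome, the short genes with a peak in all active lists, 9.94% of 1821 against 20.6% of all protein-coding genes, made up 26 of 97 on chromosome 16, 9 of 34 on 22, 26 of 123 on 19, 9 of 47 on 20 and 24 of 146 on 17. These were 26.8%, 26.5%, 21.1%, 19.1% and 16.4%, where all protein-coding genes of the same chromosomes had 36.1%, 41.9%, 33.2%, 27.7% and 36.8%, each above 20.6%. No short gene of the 13, 10 and 60 on chromosomes 13, 18 and 21 had a peak in all active lists. All protein-coding genes there had 13.6%, 18.5% and 28.0%. Chromosome 11, with 217 short genes the largest group, held 14, or 6.45%, against 14.3% of all its protein-coding genes. The upstream windows of the RefSeq table, available for 1338 short genes, also differed in base composition. Their median GC content was 55.6%, against 62.0% over 15813 promoters of coding genes, and it was 64.8% in the 49 with a peak in all 6 lists and 50% in the 943 with none. A GC box was found in 34.7% of short genes, 55.8% of all, 71.4% of those with a peak in all lists and 23.5% of those with none. A TATA box was found in 22.6% of short genes and 9.36% of all, and in 8.16% and 28.4% of these 2 groups. A CCAAT box differed less, with 33.6%, 34.4%, 22.4% and 35.1%. Outside the 6 tissue-restricted families, the short genes without a peak had a median GC content of 55.6% and a TATA box in 19.0% of 658 windows. The whole 250 bases lay under a peak in 6.23%, 3.61% and 12% of 1717 short genes with active SCP1 and in 1.75%, 0.70% and 2.10% with inactive SCP1, and in 4.74%, 2.65% and 11.0%, and 1.21%, 0.37% and 1.39%, of genes of 3 to 30 kb.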

How the data were processed

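The data were 6 broad-peak lists, 1 per library, for 3 active SCP1 and 3 inactive SCP1 libraries of HEK293 cells. Per the submitters' processing notes, FastQC, cutadapt 4.6, Bowtie2 2.5.2 and the build hg38 were used, and the peak caller and its control are not given in the sources used here. The deposited lists give for each peak a score, a fold enrichment (ratio over background), a −log10 p-value and a −log10 q-value. The score was not used further. The lowest deposited −log10 p-value of a list ran from 3.08 in the longest list to 4.60 in the shortest, so the longer lists hold weaker peaks. The lists give no read counts, so depth is unknown, intervals for counting error were not possible, and only the 3 libraries per group give a measure of precision.

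Gene positions were taken from the RefSeq table of GRCh38.p14, which gives no exons. Strand came from the RefSeq promoter table or, by symbol and chromosome only, from GENCODE release 44 mapped to GRCh37, for 94.3% of 1821 short genes and 97.9% of those of 3 to 30 kb. Coverage, the strongest peak per gene and all ratios were computed in Python 3.11.15 with numpy 2.4.6 and pandas 2.3.3, and the steps were tested on simulated data. Libraries were grouped by their treatment label. Groups were compared with the two-sided exact permutation test, which enumerates 20 assignments, short and longer genes with the two-sided exact sign-flip test over 6 libraries. Benjamini-Hochberg adjustment covered 9 tests. Alternatives were equal peak number, cutoffs of 6 for −log10 p and 2 for −log10 q, other flanks and overlaps, 3 to 10 kb genes, genes without a neighbour within 5 kb, replicates 1 and 2 only, and leaving out each library. Leaving out the 6 tissue-restricted families or the LOC symbols was chosen after seeing the data.

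Named genes were the 10 with peaks in all 6 lists and the 10 in all active and no inactive lists with the highest minimum fold enrichment, up to 5 in all inactive and no active lists (none), the 6 of highest minimum among genes with no neighbour within 5 kb, and a panel of 24 genes where under 3 kb. The members, lists and tests were chosen with earlier results of these data known.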

Additional observations from a re-analysis of the deposited data

How the results depend on the processing

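With 3 libraries a group no permutation test could pass 0.05, and leaving out any library lifts the smallest sign-flip p from 0.031 to 0.0625, so the calls lost there follow from fewer samples. The share of short over 3 to 30 kb genes kept its direction without each library (log2 −1.15 to −1.09, p 0.0625) and in replicates 1 and 2 only (−1.15, p 0.125), and turned to 1.98 where at least 50% of the gene had to be covered. The covered share ranged from 0.62 to 0.75 without each library, was 0.70 in replicates 1 and 2 only (p 0.125) and 0.022 against genes of 3 to 10 kb, and reversed to −1.71 without genes that have a neighbour within 5 kb and to −0.34 near the gene ends alone. The rule of 50% is easier to meet on a short gene, and the cause of these reversals was not tested.

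The group ratio of the share with a peak kept its direction in all 17 alternatives, from 0.29 at equal peak number to 3.34 without genes near a neighbour. All values without genes near a neighbour rest on 1 to 5 short genes with a peak in each inactive list. The group difference of the log2 share ratio (−0.07) was 0.086 at equal peak number, 1.28 without genes near a neighbour, and −0.16 to 0.00090 without each library. That of the covered share (−0.48) was −0.11 at equal peak number (p 0.4), −0.28 and −0.31 with −log10 p of at least 6 and −log10 q of at least 2, and 0.65 without genes near a neighbour. The ratio of median fold enrichment, near 0, changed sign in 10 alternatives: 0.014 at equal peak number, 0.038 with −log10 p of at least 6, 0.033 with −log10 q of at least 2, 0.035 without flanks, 0.0041 in replicates 1 and 2 only, 0.00035 without the 6 families, 0.0055 without LOC symbols, and −0.0077 to 0.0094 without each library. The −log10 p ratio passed 0.05 at equal peak number (0.060), with −log10 q of at least 2 (0.085) and without flanks (0.096), and was −0.058 without genes near a neighbour. The ratio before the start over past the end passed at equal peak number (−0.25), with −log10 q of at least 2 (−0.23) and in windows of 2 kb (−0.50), and its group difference was −0.0028 to 0.25 without each library. Neither could be computed without genes near a neighbour, where lists covered no base.

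The 60 genes with a peak in all 6 lists became 37 at equal peak number, 29 with −log10 p of at least 6, 31 with −log10 q of at least 2 and 1 without genes near a neighbour, and 60 to 109 without each library, the highest without inactive replicate 2. The 41 in active lists only became 2, 8 (−log10 p of at least 6) and 3 (without genes near a neighbour), and 41 to 106 without each library, the highest without active replicate 2. Same-numbered libraries deviated together with correlations of 0.013, 0.302 and 0.184, and 5 of 6 correlated best with their own number. The replicate block left the values at 1.53 (exact p 0.25), −0.07 (0.75), −0.48 (0.25) and 0.10 (0.5), where 0.25 is the smallest p that 3 pairs allow.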
